A study of Homo sapiens with 3 samples.

Results

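The ZNF peaks are the YBX1 ChIP-seq peaks that the authors' annotation names for a gene whose symbol is ZNF followed by digits alone. They were chosen by gene name, not by any measured value, and peaks on chromosomes X and Y were left out. Replicate 1 held 294 ZNF peaks among 21585 peaks outside X and Y, a share of 1.36% (95% Wilson interval 1.22% to 1.53%). Replicate 2 held 260 among 16251, a share of 1.6% (1.42% to 1.8%). The peaks named 132 ZNF genes in replicate 1 and 120 in replicate 2, with 154 in either list and 98 in both. The RefSeq gene table lists 478 symbols of this form, of which 152 (31.8%) were named for a peak. The 2 remaining symbols are older ones: ZNF720 is now KRABD5, and ZNF812 is now ZNF812P, a name given to a pseudogene.

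The series mapped where YBX1, a DNA- and RNA-binding protein of the Y-box family, sits on chromatin in HEL cells, an established human erythroleukaemia line with mutated JAK2. Untreated cells gave 2 YBX1 immunoprecipitations, replicates 1 and 2, and 1 input library of sheared chromatin served as the background for both. The libraries held 10275569 and 10190347 tags (sequenced reads) in replicates 1 and 2 and 77308330 in the input, per the file headers. There is no second condition and no mock immunoprecipitation, so what follows describes 1 cell state and makes no test between groups.

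Zinc finger genes of this kind mostly encode proteins with arrays of cysteine-histidine fingers, each of which can contact a few bases of DNA. Many also carry a KRAB domain, which binds the co-repressor TRIM28 and through it recruits histone methylation and other silencing factors to transposable elements. The genes arose largely by local duplication and stand in rows of near-identical copies, many of them on chromosome 19, so short reads in and around them can be hard to place.

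Of the ZNF genes, 5 had a region in their promoter class that was found in both replicates: ZNF561, ZNF773, ZNF529, ZNF366 and ZNF613. The RefSeq promoter table holds windows of 300 bases, from 250 before to 50 after an annotated start, on build GRCh38.p14, for 127 of the 154 ZNF symbols. Of these 5 genes, ZNF366 had 0 windows and ZNF529 had 2, which are not printed. Windows of the other 3 are shown because promoter-class peaks lie closest to the start of a ZNF gene. They are at chr19:57499688-57499987 on the plus strand (ZNF773), chr19:9621183-9621482 on the minus strand (ZNF561) and chr19:51927222-51927521 on the plus strand (ZNF613). Capitals mark a run of at least 3 TCCATC units.
ZNF773: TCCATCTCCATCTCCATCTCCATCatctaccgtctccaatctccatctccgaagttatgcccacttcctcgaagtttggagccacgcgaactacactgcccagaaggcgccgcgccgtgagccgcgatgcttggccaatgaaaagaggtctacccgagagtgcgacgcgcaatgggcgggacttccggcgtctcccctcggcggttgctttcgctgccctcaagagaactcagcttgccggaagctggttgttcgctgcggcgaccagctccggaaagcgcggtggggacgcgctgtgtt
ZNF561: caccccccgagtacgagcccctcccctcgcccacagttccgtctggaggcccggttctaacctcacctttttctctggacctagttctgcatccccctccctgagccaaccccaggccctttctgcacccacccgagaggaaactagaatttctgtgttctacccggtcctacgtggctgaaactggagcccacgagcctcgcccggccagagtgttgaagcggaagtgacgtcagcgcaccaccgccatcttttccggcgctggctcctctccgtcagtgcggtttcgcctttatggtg
ZNF613: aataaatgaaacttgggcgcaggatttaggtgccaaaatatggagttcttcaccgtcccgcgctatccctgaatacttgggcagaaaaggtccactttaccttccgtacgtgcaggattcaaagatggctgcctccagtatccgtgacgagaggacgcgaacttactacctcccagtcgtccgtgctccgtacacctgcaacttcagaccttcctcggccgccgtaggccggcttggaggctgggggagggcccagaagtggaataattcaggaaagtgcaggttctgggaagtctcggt

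The ZNF773 window opens with 4 TCCATC units in a row, 24 bases in all. Runs of 3 or more units of TCCATC, on either strand and in any rotation, were found in 1 of 35116 promoter windows (0.00285%), that of ZNF773; this unit was searched after the window had been read. Runs of 3 or more AGAT units were in 5 windows (0.0142%) and runs of 3 or more ATCC units in 18 (0.0513%), and 0 of the 519 ZNF windows held either. A run is a description of the letters in the window and not a binding site. The peaks are placed on hg19 and the windows on another build, so the distance between a peak and its window was not computed. A window may therefore not hold the sequence under a peak. The ZNF561 and ZNF613 windows held no AGAT run, though TCTA, the same unit on the other strand, labelled a shared promoter-class region of each gene.

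Values for each peak are the authors'. MACS, the peak caller, gave each peak its tag count and a fold enrichment over a background estimated near the peak or genome-wide. The fold does not follow from the tag count alone. At 121-fold in replicate 1, a peak named for ZNF688 had 18 tags and another, in ZNF423, had 76. Where the genome-wide background applied, folds moved in steps of 13.5 in replicate 1 and 13.6 in replicate 2, so close medians can be the same step. All peaks in the lists had at least 5 tags. Here a ZNF peak counts as shared if at least 1 bp of it lies under a peak called in the other replicate. In replicate 1, 162 of 294 ZNF peaks were shared, 55.1% (49.4% to 60.7%), beside 53.8% of all peaks outside X and Y. In replicate 2, 181 of 260 were shared, 69.6% (63.8% to 74.9%), beside 77.4% of all peaks outside X and Y. The share in replicate 1 was thus near that of all peaks, while in replicate 2 the interval ended below it. When at least 50% of both peaks had to overlap, 36.7% and 41.5% of ZNF peaks were shared, beside 39.4% and 52.3% of all peaks. Merging overlapping peaks gave 137 shared ZNF regions of 10278, which named 91 of the 154 ZNF genes, and 63 ZNF genes had none.

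The lower share of replicate 2 came with 3 stretches of chromosome 19 that hold many weak peaks and were picked out after their values were seen. They are the stretch named for both ZNF146 and ZNF565, the stretch named for both ZNF383 and ZNF527, and the ZNF558 peaks more than 10 kb beyond that gene's tandem repeat. Together they held 37 of the 79 unshared ZNF peaks of replicate 2 (46.8%) and 9 of the 132 of replicate 1 (6.82%). Without them, 56.5% of ZNF peaks were shared in replicate 1 (50.7% to 62.2%) and 81% in replicate 2 (75.3% to 85.6%). Since the stretches were picked as weak and mostly unshared, and were taken out of the ZNF peaks alone, the share had to go up, and nothing is read from its place beside that of all peaks.

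Most ZNF peaks lay outside genes and are named for neighbours. Intergenic peaks made up 73.8% of ZNF peaks in replicate 1 (68.5% to 78.5%) and 76.2% in replicate 2 (70.6% to 80.9%), beside 57.4% and 58% of all peaks. Introns held 20.7% (16.5% to 25.7%) and 20% (15.6% to 25.3%) of ZNF peaks, beside 38.3% and 37.6% of all peaks. In both replicates, then, the intergenic share of ZNF peaks was above and the intronic share below that of all peaks, and the intervals did not reach the shares of all peaks. Among peaks naming ZNF genes alone, however, 46.4% and 56% were in introns, above the shares of all peaks. The direction thus depends on the naming rule, and nothing more is read from it. The promoter class held 12 ZNF peaks in replicate 1 (4.08%) and 9 in replicate 2 (3.46%), beside 3.32% and 3.44% of all peaks. Exons held 4 ZNF peaks in replicate 1 and 1 in replicate 2. An intergenic peak was often named for several genes: 49 ZNF peaks of replicate 1 and 66 of replicate 2 named more than 1 ZNF gene, and up to 7. Peaks inside a ZNF gene, in its promoter class, exons or introns, numbered 77 and 62. ZNF536 and ZNF423 held 31 of these 77 and 34 of these 62.

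Simple tandem repeats, short units repeated head to tail, were the label of 126 ZNF peaks in replicate 1 (42.9%, 37.3% to 48.6%) and 119 in replicate 2 (45.8%, 39.8% to 51.8%). The shares of all peaks were 49.7% and 57.5%. The units were counted over both strands and all rotations, so that AGAT also stands for TCTA and TAGA, and ATCC for TCCA and TGGA. These 2 units made up 109 of the 126 and 100 of the 119 tandem ZNF peaks. ATCC labelled 62 and 53 ZNF peaks, 21.1% and 20.4%, close to the 20.1% and 21.7% of all peaks. AGAT labelled 47 ZNF peaks in each replicate, 16% (12.2% to 20.6%) and 18.1% (13.9% to 23.2%), beside 21.8% and 26.8% of all peaks. For AGAT the intervals of ZNF peaks ended below the shares of all peaks, and for ATCC they covered them. ZNF423 supplied 17 of the ATCC peaks in each replicate and ZNF536 12 and 15. The peaks are thus not independent, and the intervals are no test.

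HAL1-2a_MD, a fossil LINE element, labelled 18 ZNF peaks in replicate 1 (6.12%, 3.91% to 9.47%) and 14 in replicate 2 (5.38%, 3.23% to 8.83%), beside 3.42% and 3.43% of all peaks. ZNF536 alone accounted for 7 of the 18 and 5 of the 14. SINE elements labelled 7.14% and 6.92% of ZNF peaks, beside 4.19% and 3.58% of all peaks. Transcript ends labelled 9 ZNF peaks in each replicate, 3.06% and 3.46%, beside 0.639% and 0.788% of all peaks. CpG islands labelled 5 ZNF peaks in replicate 1 and 21 in replicate 2, and 4 and 16 of these lay in the stretch named for ZNF146 and ZNF565.

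Whether a ZNF peak was shared went with its tag count. In replicate 1, ZNF peaks with 5 tags were shared in 12 of 55 cases (21.8%, 12.9% to 34.4%), and those with 21 or more tags in 60 of 63 (95.2%, 86.9% to 98.4%). Among all peaks the same shares were 18.4% and 97%. In replicate 2, the shares of ZNF peaks were 50% (36.9% to 63.1%) at 5 tags and 93.2% (81.8% to 97.7%) at 21 or more, beside 48.9% and 97.4% of all peaks. ZNF peaks and all peaks were thus alike at the lowest and the highest tag counts. In between, in replicate 2, 64.3% (55.1% to 72.6%) of ZNF peaks with 6 to 10 tags and 80.8% (68.1% to 89.2%) of those with 11 to 20 were shared, beside 75.4% and 94.2% of all peaks. In replicate 1 the intervals covered the shares of all peaks, with 37% (28.5% to 46.4%) at 6 to 10 tags and 73.5% (62% to 82.6%) at 11 to 20, beside 38.5% and 78.8%. Tandem labels at 6 to 10 tags were on 27.8% (20.2% to 36.9%) and 33% (25% to 42.2%) of ZNF peaks in replicates 1 and 2, beside 39.8% and 53.3% of all peaks.

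**Figure D1:**
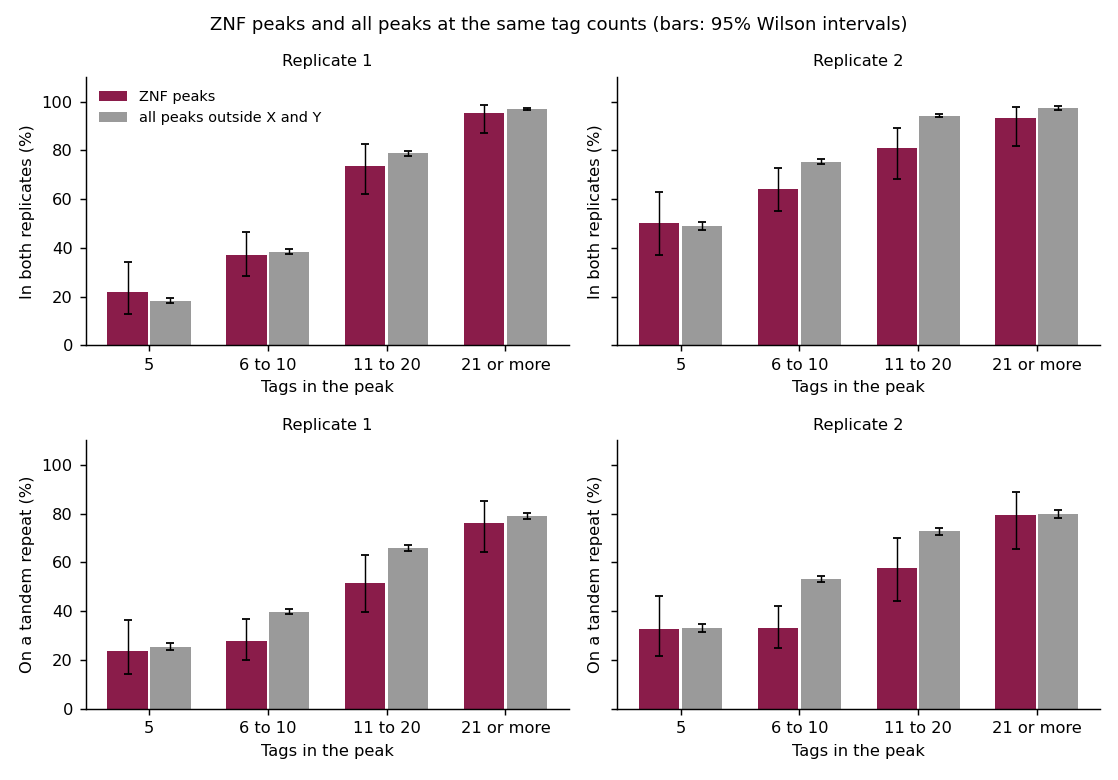
Share of peaks found in both replicates (top, percent) and share labelled as a simple tandem repeat (bottom, percent) by tags in the peak, for replicate 1 (left) and replicate 2 (right). Red bars are ZNF peaks, grey bars are all peaks outside X and Y, and error bars are 95% Wilson intervals. At 5 tags and at 21 or more the red and grey bars are close, and at 6 to 10 tags the red tandem bars (27.8% and 33%) are under the grey ones (39.8% and 53.3%).

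Within tandem repeats, the shared fraction of ZNF peaks was near that of all peaks. On tandem repeats, 73% of ZNF peaks in replicate 1 (64.7% to 80%) and 93.3% in replicate 2 (87.3% to 96.6%) were shared, beside 71.7% and 91.2% of all peaks. On AGAT the ZNF shares were 89.4% (77.4% to 95.4%) and 97.9% (88.9% to 99.6%), beside 84.5% and 95.4%. On CpG islands, 3 of 5 ZNF peaks were shared in replicate 1 (60%, 23.1% to 88.2%) and 1 of 21 in replicate 2 (4.76%, 0.846% to 22.7%), beside 36.4% and 17.2% of all CpG island peaks.

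The median fold enrichment of ZNF peaks was 53.9 in replicate 1 and 47.9 in replicate 2, beside 53.9 and 54.4 for all peaks. ZNF peaks on tandem repeats had median folds of 78.4 and 63.3, against 40.5 and 31 for ZNF peaks elsewhere. Shared ZNF peaks had median folds of 67.4 and 54.4, against 40.5 and 19.8 for ZNF peaks found once. The strongest unshared ZNF peak of replicate 1 was an AluSz peak named for ZNF521, at 110-fold with 20 tags. In replicate 2 no unshared ZNF peak was above 68-fold.

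Across the 137 shared ZNF regions, the strongest peaks had median folds of 74 in replicate 1 and 63.5 in replicate 2, beside 77.1 and 65.5 over all 10278 shared regions. Their median tag counts were 15 and 11, the same as over all shared regions. The log2 folds of the replicates had a Pearson correlation of 0.83 and a Spearman correlation of 0.768 over these 137 regions; the points share libraries and the input, and the values are a description. In 10 of the 137 (7.3%) the folds were 2-fold or more apart, beside 7.85% of all shared regions. All 137 had the same position class in both replicates. A tandem repeat was the label in either replicate for 85 of them (62%, 53.7% to 69.7%), beside 73.9% of all shared regions.

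**Figure D2:**
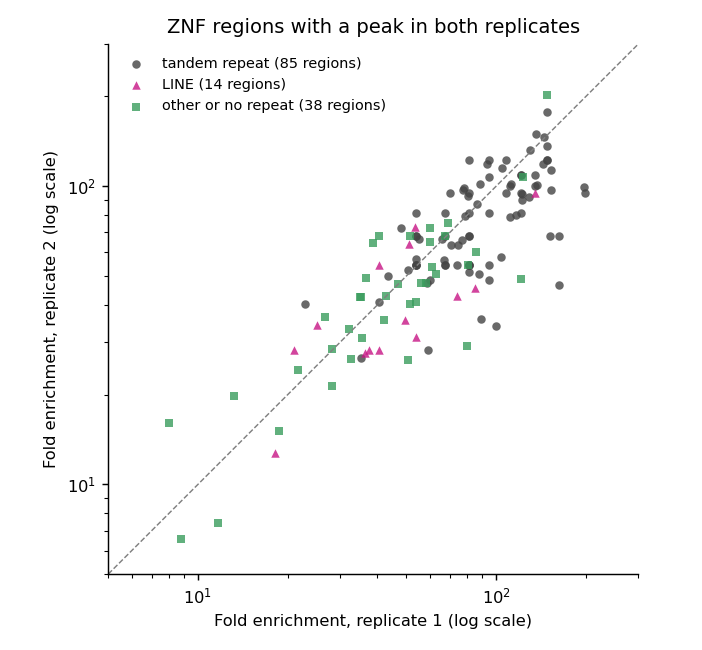
Fold enrichment of the strongest peak in replicate 1 (x axis, log scale) and replicate 2 (y axis, log scale) for the 137 shared ZNF regions, 1 point each, by repeat label; the dashed line marks equal folds. Tandem repeat regions (85) make up most of the upper end, with exceptions such as the region on the LTR element MLT1A0 (148 and 203-fold). The median folds are 74 in replicate 1 and 63.5 in replicate 2.

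Ranked by the lower of its folds in the replicates, the first shared ZNF region was a TCTA repeat named for ZNF728, with folds of 148 in replicate 1 and 177 in replicate 2 from 53 and 49 tags, at chr19:23085733-23086031. The second, named for ZNF444 and ZNF787, lay on the LTR element MLT1A0 and had folds of 148 and 203. The third was in an intron of ZNF536, on a TCCA repeat, with folds of 145 and 146. These were followed by TCTA repeats named for ZNF596 (136 and 150) and for the group ZNF470, ZNF71 and ZNF835 (148 and 136). Of the first 20, 17 were labelled tandem in replicate 1 and 16 in replicate 2, 17 were intergenic, and 3 were in introns of ZNF536 or ZNF423. The 17 intergenic regions are 85% of the 20 (64% to 94.8%), and this interval covers the 71.5% of all 137 shared ZNF regions that were intergenic.

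The other regions of the first 20 were of the same kinds. ZNF696 had 2, at 130 and 132-fold with 186 and 110 tags, and at 144 and 119-fold. ZNF469 had 2, at 148 and 122-fold and at 108 and 122-fold. ZNF536 had 2 more, an intergenic TCTA repeat (153 and 113) and an intronic TAGA repeat (137 and 101). TAGA or TCTA repeats were also the label of the regions named for ZNF728 with ZNF730 (135 and 109), ZNF217 (121 and 109), ZNF572 (105 and 115), ZNF672 with ZNF692 (135 and 100), and the group ZNF525, ZNF677, ZNF765 and ZNF845 (148 and 122). ZNF557 had a region labelled ATG repeat in replicate 1 and HAL1-2a_MD in replicate 2 (112 and 102), and ZNF207 one labelled TCTA repeat in replicate 1 and AluSx in replicate 2 (111 and 100). In these last 2 regions the repeat label differed between the replicates. The remaining ones were the TCCA repeat in an intron of ZNF423 (121 and 109) and an SVA_C element named for ZNF100 and ZNF43, described with the KRAB genes.

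Promoter and exon regions were few. ZNF561 had 2 shared promoter-class regions: a TCTA repeat in hg19 at chr19:9730446-9730625, with 78.2-fold from 49 tags in replicate 1 and 98.8-fold from 34 tags in replicate 2, and a neighbour with 32.5 and 26.3-fold. ZNF773 also had 2, both labelled as the start of the transcript, at chr19:58010819-58011100 (68.8 and 75.3-fold) and chr19:58010646-58010766 (50.5 and 26.1-fold). ZNF529 had 1 without a repeat label (60.2 and 64.9). ZNF366, which encodes a regulator found in dendritic cells, had 1 on a TCTA repeat (94.4 and 54.4), and ZNF613 had 1 on a TCTA repeat (60.2 and 48.6). TCTA repeats thus carried the promoter-class regions of 3 of these 5 genes. In exons the only shared region was in the 3′ UTR of ZNF213, with 53.9-fold from 11 tags in replicate 1 and 40.8-fold from 5 tags in replicate 2.

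A group of 3 genes with many peaks was singled out after the counts were seen, and count alone does not set it apart. ZNF146 and ZNF565 were named for the same 5 peaks in replicate 1 and 24 in replicate 2, and ZNF558 for 8 and 11. ZNF536, which encodes a repressor active in neuronal differentiation, was named for 33 peaks in replicate 1 and 32 in replicate 2. ZNF423, whose product acts in cerebellar and fat cell development, was named for 18 in each. ZNF469, mutated in brittle cornea syndrome, was named for 10 and 11. Together ZNF536, ZNF423 and ZNF469 accounted for 20.7% and 23.5% of ZNF peaks and for 35 of the 137 shared regions. They also held 42 of the 126 and 49 of the 119 tandem ZNF peaks.

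**Figure D3:**
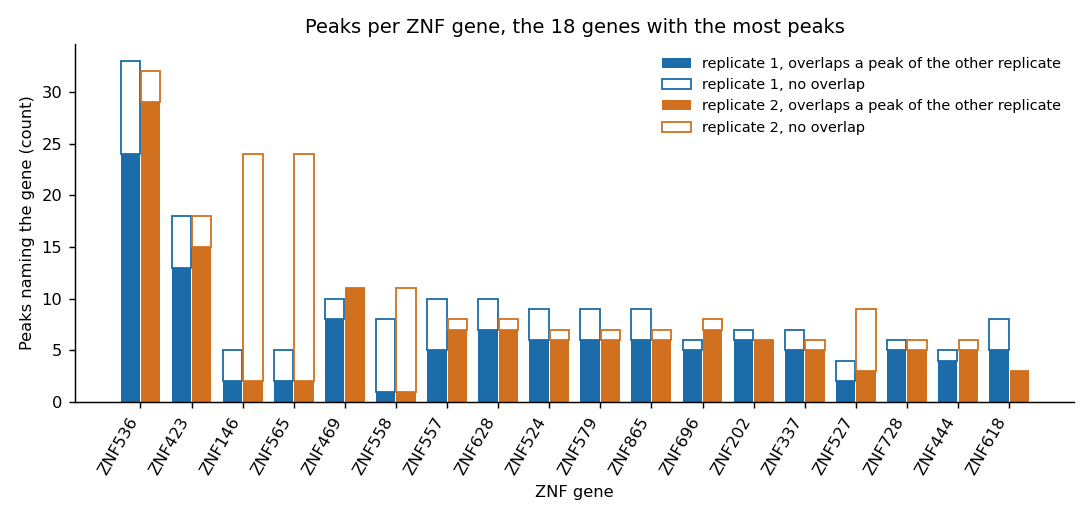
Number of peaks naming each of the 18 ZNF genes with the most peaks (y axis, count), for replicate 1 (blue, left bar) and replicate 2 (orange, right bar); the filled part overlaps a peak of the other replicate and the open part does not. ZNF536 leads with 33 and 32 peaks, and ZNF146 and ZNF565 have 24 mostly open peaks in replicate 2 against 5 in replicate 1.

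ZNF536 peaks spread over 323 kb of chromosome 19. In replicate 1, 14 were in its introns and 19 outside, and in replicate 2, 17 and 15. Of its peaks, 24 of 33 and 29 of 32 were shared, in 19 regions, 10 of them inside the gene. The intronic peaks lay within about 32.3 kb in replicate 1 and 32.5 kb in replicate 2, with folds of 33.5 to 145 and 28.2 to 146. Tandem repeats labelled 17 and 22 of all its peaks, most often ATCC (12 and 15), and HAL1-2a_MD labelled 7 and 5.

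ZNF423 peaks were nearly all in introns (17 of 18 in each replicate) and nearly all on ATCC units (17 of 18 in each). A tract annotated as TCCA repeat, chr16:49660448-49662488 in replicate 1, held 10 peaks with 291 tags in 2.04 kb. The same tract held 12 peaks with 185 tags in replicate 2, and all 10 and all 12 were shared, in 7 regions. Folds within it ran from 48.5 to 121 in replicate 1 and from 28.1 to 109 in replicate 2. Most ZNF423 peaks of both replicates thus lay within this single annotated repeat tract. All ZNF469 peaks were intergenic and formed 2 groups. The first held 4 and 7 peaks over 7.05 and 7.02 kb, and the second 6 and 4 peaks over 1.14 and 0.809 kb. In total 8 of 10 and 11 of 11 ZNF469 peaks were shared, and 8 and 10 were on tandem repeats.

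**Figure D4:**
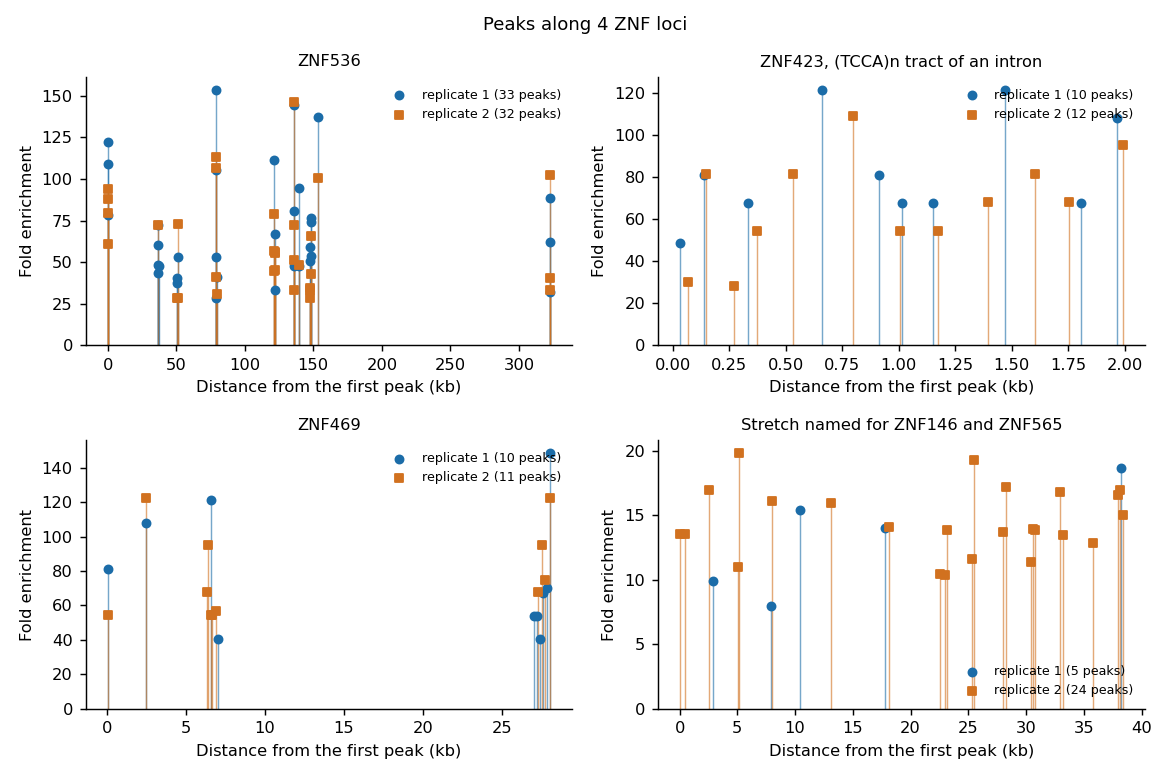
Fold enrichment (y axis) of each peak against its distance from the first peak of the locus in kb (x axis), for ZNF536, the TCCA tract of ZNF423, ZNF469 and the stretch named for ZNF146 and ZNF565; blue circles are replicate 1 and orange squares replicate 2. At the first 3 loci most peaks of each replicate overlap a peak of the other, for ZNF536 24 of 33 and 29 of 32. In the last, 5 peaks of replicate 1 stand among 24 of replicate 2, all under 20-fold.

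Other genes had fewer shared regions of their own. Beside ZNF536 and ZNF423, with 10 each, ZNF561, ZNF773 and ZNF812 had 2 inside the gene, and those of ZNF812 were in introns (74.7 and 63.5-fold, and 13.2 and 19.8-fold). ZNF720 had 1 on the LINE element L1MC4a in an intron (135 and 95.2), with 3 further peaks in replicate 1 alone. ZNF527 had 1 on a TAGA repeat (86.2 and 86.9) and ZNF136 1 on a TCTA repeat (80.9 and 95.2). In all, 18 ZNF genes had a shared region inside the gene. Since ZNF genes have close copies, the placement of the 36 bp reads in them is uncertain, with or without a repeat label. Placement was not tested here, and this holds for the tandem repeat regions too.

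The stretch named for ZNF146 and ZNF565, chr19:36760681-36799104, differed most between the replicates. It held 5 peaks in replicate 1 and 24 in replicate 2, of which 2 and 2 were shared. Folds were low, 7.97 to 18.7 and 10.4 to 19.8, and the tags came to 62 and 237. Peaks of both lists formed 14 groups with a median gap of 2672 bp, and 11 of the 13 gaps were between 2000 and 3000 bp. CpG island was the label of 4 and 16 peaks. The ZNF558 peaks more than 10 kb beyond its tandem repeat numbered 6 and 10, with 0 shared in each replicate, median folds of 16.1 and 19.2, and no tandem label. A further unshared ZNF558 peak of replicate 1, on an L2c element with 53.9-fold, lay close to the repeat and is not among these. The stretch of ZNF383 and ZNF527 held 0 peaks in replicate 1 and 5 in replicate 2, at 14.3 to 16.9-fold. The input reads over these stretches were not analysed here.

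Chromosome 19 held 130 ZNF peaks in replicate 1 (44.2%, 38.7% to 49.9%) and 138 in replicate 2 (53.1%, 47% to 59.1%), beside 4.64% and 4.9% of all peaks. It also held 80 of the 154 named ZNF genes (51.9%), but these genes were taken from the same peaks. Many ZNF genes stand on chromosome 19, so the choice by name can itself give a high share there. The share of all ZNF symbols on each chromosome was not counted, so nothing is read from the chromosome shares. Of all peaks on chromosome 19, 13% and 17.3% were ZNF peaks. Chromosome 16 followed with 35 and 32 ZNF peaks (11.9% and 12.3%), beside 3.94% and 3.95% of all peaks. Of these, ZNF423 was named for 18 and 18 and ZNF469 for 10 and 11. Chromosome 8 held 26 and 17 (8.84% and 6.54%), near the 6.78% and 7.2% of all peaks. Chromosomes 13, 14 and 21 had 0 in either replicate, beside 3.32%, 2.46% and 3.35% of all peaks in replicate 1. Of the 137 shared regions, 62 were on chromosome 19 (45.3%), 19 on chromosome 16 (13.9%) and 11 on chromosome 8 (8.03%). The shares of all shared regions were 4.42%, 3.82% and 6.84%.

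On chromosome 19 itself, the tandem share of ZNF peaks was below that of the other peaks there. Tandem labels were on 41.5% (33.4% to 50.1%) and 34.1% (26.7% to 42.3%) of ZNF peaks there, against 62.6% (59.3% to 65.7%) and 71.6% (68.1% to 74.9%) of the other chromosome 19 peaks. Sharing was 54.6% (46% to 62.9%) and 58.7% (50.4% to 66.6%) for these ZNF peaks, against 55.7% and 83.6% for the other peaks. Without the 3 weak stretches it was 58% (49% to 66.5%) and 79.8% (70.8% to 86.5%), and tandem labels were on 45.4% (36.7% to 54.3%) and 47.5% (37.9% to 57.2%). The stretches were chosen for their weak and mostly unshared peaks and left out of the ZNF peaks alone, so the move in sharing was fixed by that choice. They held no peak labelled tandem, so the tandem share had to rise as well. Off chromosome 19, tandem labels were on 43.9% (36.5% to 51.6%) and 59% (50.1% to 67.3%) of ZNF peaks, against 49.2% and 57.1% of the other peaks.

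Runs of ZNF peaks with gaps of at most 500 kb, with at least 5 peaks and 2 ZNF genes, formed 16 clusters, 11 of them on chromosome 19. They held 201 of the 554 ZNF peaks of both lists (36.3%). The clusters with the most shared regions had 5 each. One, chr19:8830342-9836462, named 10 ZNF genes and held 17 and 18 peaks, of which 5 and 5 were shared; ZNF558, ZNF561 and ZNF812 had its shared regions. Its strongest shared region was the TCCA repeat named for ZNF558, with 153-fold from 141 tags in replicate 1 and 96.9-fold from 84 tags in replicate 2.

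A second cluster, chr19:22685642-23909501, named 7 ZNF genes and held 10 and 7 peaks, with shared regions named for ZNF728 and ZNF730. The third cluster, chr19:55963880-56079791, held 10 and 8 peaks, 7 and 7 of them shared, whose regions named ZNF524, ZNF579, ZNF580, ZNF581, ZNF628, ZNF784 and ZNF865. Its strongest shared region was a TGGA repeat with folds of 122 and 89.7. The fourth, chr8:144276892-144855045, held 7 and 8 peaks, 5 and 7 of them shared, and all its shared regions named ZNF696. The shared regions of this cluster and of the first named 1 ZNF gene each, whereas those of the third named up to 7.

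The named genes were also counted by known role, as a description. Of 25 KRAB genes described as silencers, 6 were named for a peak in either replicate, and 9 of 21 and 9 of 20 of their peaks were shared (42.9% and 45%). Of all ZNF symbols in RefSeq, 31.8% were named, and over all peaks 53.8% and 77.4% were shared. The unshared ZNF558 stretch supplied 6 of the 21 and 10 of the 20 peaks. ZNF43 had a shared region on an SVA_C retrotransposon (123 and 107), named also for ZNF100. ZNF558 had the TCCA repeat given above, and ZNF202, which encodes a repressor of lipid metabolism genes, had a region on or beside a TAGA repeat (94.4 and 107). ZNF91, a silencer of SVA elements, had a single peak, in replicate 1 alone, on an intergenic TCTA repeat with 80.9-fold from 10 tags.

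Of 29 ZNF genes without a KRAB domain that regulate transcription or development, 14 were named, 11 of them with a shared region, beside the 31.8% named of all ZNF symbols. Their peaks were shared in 54 of 85 cases in replicate 1 (63.5%) and 58 of 66 in replicate 2 (87.9%), beside 53.8% and 77.4% of all peaks, and ZNF536 and ZNF423 supplied 51 of the 85 and 50 of the 66. ZNF217, a gene amplified in breast cancers, had a TAGA repeat region (121 and 109). ZNF704 had a TCTA repeat region (198 and 94.7) and ZNF703, a gene of luminal breast cancers, a TAGA repeat region (77.7 and 97.4). All 3 regions were intergenic.

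Of 11 ZNF-named genes with roles outside DNA binding, 3 were named for peaks, and their peaks were shared in 3 of 9 (33.3%) and 3 of 4 cases (75%), beside 53.8% and 77.4% of all peaks. ZNF207, which encodes a spindle protein, had 2 shared regions, the TCTA and AluSx one given above and a neighbour on AluSx (42.7 and 43). ZNF706 had 1, on a TCTA repeat (197 and 99.1). Among 21 genes of co-repressors and heterochromatin factors that work with KRAB proteins, 7 were named for a peak in either replicate. The share of all genes named for a peak was not counted, so nothing is read from the 7. Peaks of these genes were shared in 1 of 4 (25%) and 1 of 6 cases (16.7%), beside 53.8% and 77.4% of all peaks. Their 1 shared region was on a TCCA repeat in an intron of ATF7IP, the partner of the methyltransferase SETDB1. It had 48-fold in replicate 1 and 36.3-fold in replicate 2.

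Peaks chosen by other gene names were counted in the same way. A peak can name several genes, and 29 of the 142 peaks of other zinc finger symbols in replicate 1 (20.4%) and 52 of the 153 in replicate 2 (34%) were ZNF peaks as well, as were 16 of 158 and 18 of 122 peaks of olfactory receptor genes and 7 of 448 and 5 of 307 of solute carrier genes. The shares below leave these ZNF peaks out, a choice made after the overlap was seen. For other zinc finger symbols, such as ZNF with a letter suffix, ZFP or ZBTB, 56.6% of 113 and 80.2% of 101 peaks were shared, and 42.5% (33.8% to 51.7%) and 52.5% (42.8% to 61.9%) were on tandem repeats. For olfactory receptor genes, also a clustered family, 52.8% of 142 and 81.7% of 104 were shared, and 43% (35.1% to 51.2%) and 49% (39.6% to 58.5%) were on tandem repeats. For solute carrier genes, 52.8% of 441 and 82.8% of 302 were shared, and 48.3% (43.7% to 53%) and 60.3% (54.7% to 65.6%) were on tandem repeats. With ZNF peaks left out of the other sets, the ZNF peaks themselves, with 55.1% and 69.6% shared, were lowest in replicate 2 and not in replicate 1. With the overlapping peaks kept, the other zinc finger symbols had 57.7% and 66% shared and 39.4% and 39.2% on tandem repeats. Their 66% in replicate 2 is below the 69.6% of ZNF peaks. The order of the sets in replicate 2 thus depends on that choice, and nothing is read from it.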

How the data were processed

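Reads were processed with bcl2fastq 02.14.01.07, Trimmomatic 0.36 and Bowtie2 on hg19, per the submitters' processing notes. Peaks were called by the authors in each replicate alone against the 1 input library, with MACS 1.4.2 at a p cutoff of 1e-05, per the file headers. The lists had been filtered and annotated with position class, repeat and gene symbols before they were deposited; no source used here gives the rule of that filter. The deposited values of each peak are its tag count, a score (minus 10 times log10 of the MACS p-value), a fold enrichment (a ratio to the background), a false discovery rate in percent, and the width and summit in bp. Among peaks outside X and Y, 39 in replicate 1 and 43 in replicate 2 lie on contigs other than chromosomes 1 to 22, and 0 ZNF peaks do.

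From these files, ZNF peaks were selected by symbol, replicates were compared by overlap of at least 1 bp, and connected overlapping peaks were merged into shared regions, whose fold and tags in a replicate are those of its strongest peak. Overlap of peaks and the grouping of repeat units were checked on simulated data, and the merging into shared regions was not. Python 3.11.15, pandas 2.3.3, SciPy 1.17.1 and matplotlib 3.10.9 were used. The 95% Wilson intervals of shares reflect counting error and no more; peaks of 1 library are not independent, and no test was made. Separate cultures for replicates 1 and 2 are not stated, so differences between them may be technical. Peaks with few tags were shared less often, and the part of depth in this was not tested.

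Named genes are those of the 20 shared regions with the highest lower fold, genes with a shared promoter or exon region, the 8 genes with most shared regions inside the gene, the genes of the clusters with most shared regions, and up to 5 members of each role list with a shared region; other genes named were chosen after their values were seen. The members and lists were chosen with earlier results of these data known. Promoter windows and current symbols are from RefSeq (GRCh38.p14). The alternatives tried were a stricter p, peaks inside the gene, peaks naming ZNF genes alone, symbols with a suffix, other overlap and cluster gaps, and leaving out a replicate, chromosome 19, stretches or genes.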

Additional observations from a re-analysis of the deposited data

How the results depend on the processing

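Values are means of the replicates. The share of shared ZNF peaks was 62.4% as reported and 39.1% when at least 50% of both peaks had to overlap, where all peaks had 39.4% in replicate 1 and 52.3% in replicate 2. At p of at most 1e-10 there were 136 ZNF peaks instead of 277, 79 shared regions instead of 137 and 6 clusters instead of 16, with 67.1% on tandem repeats instead of 44.3%, 23.5% in introns instead of 20.4% and a median fold of 72.3 instead of 50.9. Peaks inside the ZNF gene alone gave 69.5 peaks, 26 genes instead of 126, 39 shared regions and 2 clusters, with 56.3% on tandem repeats and 81.5% in introns. Peaks naming ZNF genes alone gave 108 peaks, 39 genes, 58 shared regions and 2 clusters, with 55.2% on tandem repeats and 51.2% in introns. Without chromosome 19, 51.5% were on tandem repeats. The next alternatives were chosen after seeing the data. Without the ZNF146 and ZNF565 stretch, 47% were on tandem repeats and 21.6% in introns; without the 3 stretches of chromosome 19, 49.2% and 22.5%; and without ZNF536, ZNF423 and ZNF469, 35.6% and 11%, with a median fold of 45.1. The stretches held no peak labelled tandem and none in introns, so both shares had to rise without them. The causes of these moves were not tested beyond the choice of peaks itself. Leaving out 1 replicate gave ranges of 55.1% to 69.6% shared, 42.9% to 45.8% on tandem repeats, 20% to 20.7% in introns, 44.2% to 53.1% on chromosome 19, and a median fold of 47.9 to 53.9. In all, 46 values under alternatives stayed within the spread between replicates or 1.5 times the count, and 27 moved. The values with 1 replicate left out are among the 46, but they define the spread and could not move. The tally is therefore not a measure of stability. No paired analysis was possible because the study has 1 group of immunoprecipitations and no other group that shares its replicate numbers. Peaks with 5 tags made up 18.7% of ZNF peaks in replicate 1 and 20% in replicate 2, and at this depth a peak missing from the other list does not show that binding was absent there.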
